A study of Danio rerio with 75 samples.

Results

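Brains of zebrafish (Danio rerio) of 24 months were compared with brains of 6 months by RNA sequencing. The comparison rests on 10 of the 75 libraries of the series, chosen by the tissue and age in their labels and not by any measured value, and all 32677 genes of the count table were considered. Each of the 5 libraries of 24 months came from 1 fish, whereas each of the 5 libraries of 6 months came from a pool of 2 fish, so that age and pooling cannot be told apart. Both ages were of the strain labelled AB JxTu with no transgene in the label, and per the methods of the study the fish were male and were sampled around midday. The hour and the day on which each library was taken are not given in the sources used here. Age and time of sampling therefore cannot be told apart for any gene. For some genes the level at 12, 36 and 42 months is given as well, again from 5 brain libraries each. Those fish carried a reporter in their strain label, Tg(flk:mCherry) at 12 months, Tg(pu.1:GFP) at 36 months and Tg(wt1a:GFP) at 42 months, and there the line cannot be told apart from age. Replicates are numbered 1 to 5 within an age and are listed in that order.

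The libraries of 24 months held 30060885 to 39394478 counted reads and those of 6 months held 29006611 to 36080155. Levels are given as CPM, the usual measure in which the reads of a gene are scaled to a common library total, here with an adjustment for composition. Defining genes of brain were abundant at both ages, since snap25a, a synaptic vesicle fusion gene of neurons, averaged 4376 CPM at 24 months and 3858 CPM at 6 months, and mbpa, a myelin gene, averaged 8090 and 11515 CPM. Some 6-month pools stood apart through genes of tissue next to the brain. Growth hormone (gh1), made in the pituitary, was at 299.5 CPM in pool 2 and 93.0 CPM in pool 5, against at most 0.261 CPM in any library of 24 months and at most 0.327 CPM in the other 6-month pools. The summed level of 56 photoreceptor genes was 160.9 to 243.3 CPM at 24 months, and at 6 months 326 CPM in pool 1, 482 CPM in pool 2 and 475 CPM in pool 5, against 232 CPM in pool 3 and 197 CPM in pool 4. Pools 1 and 5 also held the highest sums of skin keratinocyte genes (1588 and 1874 CPM, against 577 to 1207 CPM in the other 8 libraries), and the sum of skeletal muscle genes was raised in replicate 5 of 24 months (2384 CPM) and in pool 2 of 6 months (3210 CPM, against 550 to 848 CPM in the other 8 libraries). The sum of liver secreted protein genes was highest in pool 1 of 6 months (2196 CPM, against 380 to 1573 CPM in all other libraries). Counts over all genes and over the gene lists are therefore given with all libraries and also without pools 2 and 5 of 6 months, and for some lists without pools 1, 2 and 5.

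In vertebrates, daily rhythms are kept by a feedback loop of transcription. Proteins of the CLOCK and NPAS2 kind pair with BMAL proteins (the arntl genes) and switch on period and cryptochrome genes, whose products in turn inhibit the pair. The same pair drives the Rev-erb genes (nr1d), which repress BMAL genes that ROR factors activate, and the Dec genes (bhlhe40 and bhlhe41). Transcription factors of the bZIP class, dbp, tef and hlf as activators and nfil3 as a repressor, pass the rhythm on to output genes. In zebrafish, nearly every tissue holds such a clock, and light acts directly on many of them. In bulk brain RNA, fewer cells of a type and less RNA per cell cannot be told apart.

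Of 23028 genes with enough counts to be tested, 3198 (13.9%) differed between 24 and 6 months at an adjusted p under 0.05 (edgeR quasi-likelihood test, Benjamini-Hochberg adjustment over all genes tested). These were 1572 genes (6.83%) higher and 1626 genes (7.06%) lower at 24 months. Most differences were small, with a median size of 0.51 on the log2 scale among the changed genes, and 224 genes were at least 2-fold higher and 365 at least 2-fold lower. The median log2 fold change over all genes tested was 0.00. In 2640 genes (11.5%) the 5 libraries of 24 months and the 5 of 6 months did not overlap, 1924 of them among the changed genes. Between libraries of the same age the median SD of log2 CPM was 0.218 at 24 months and 0.159 at 6 months. It was 0.207 at 12 months, where each library also came from 1 fish. The SD at 6 months is between pools of 2 fish and so is not a like measure. Leaving out replicate 2 of 24 months reduced the count of changed genes to 2104, and leaving out pool 5 of 6 months reduced it to 2099. Without pools 2 and 5 there were 1560 changed genes (6.65% of 23443), and without pools 1, 2 and 5 there were 866 (3.64% of 23763). Leaving out any 1 library gave 2099 to 3482 changed genes. Counts of changed list members in such settings are to be read beside these counts over all genes, since fewer samples are part of the losses.

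Clock genes changed far more often than genes in general. Their levels follow the hour of the day, and here age and hour of sampling cannot be told apart. Of 42 clock genes found, 41 were tested, and 32 of these (78.05%) differed between the ages, 13 higher and 19 lower at 24 months, against the 13.9% among all genes. In 30 of the 41 the libraries of both ages did not overlap, against 11.5% of all genes. The 9 that did not pass were per3, cry1a, cry1b, CRY2, cry-dash, nr1d4a, roraa, rorb and hlfa, with log2 fold changes of -0.19 to 0.76. The count was 27 without pools 2 and 5, 24 without pools 1, 2 and 5, and 27 to 30 when any single library of the 10 was left out.

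**Figure D1:**
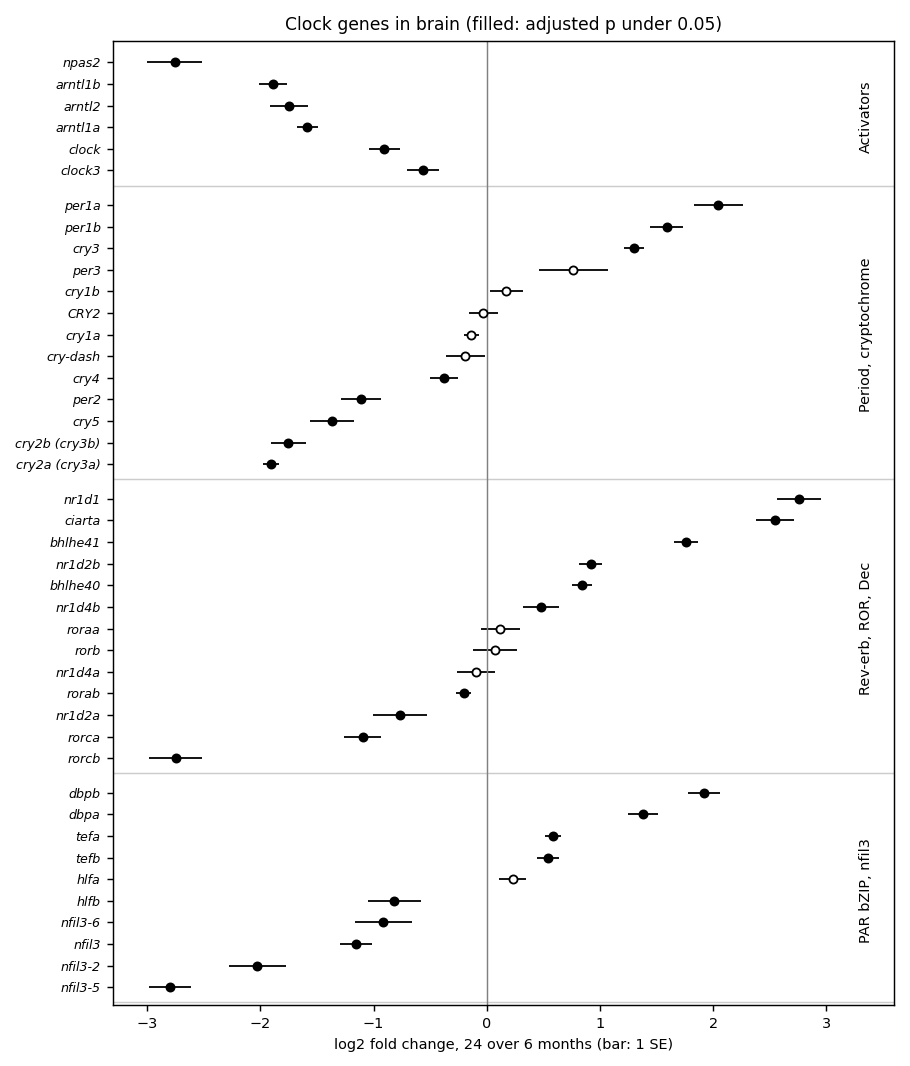
The log2 fold change of each clock gene in brain (24 over 6 months, horizontal axis, bars of 1 SE) is drawn by role in the clock. Filled points are genes with an adjusted p under 0.05. The cryptochrome gene cry2a, outside the clock lists and their counts, is drawn with the period and cryptochrome genes. All 6 activator genes lie left of 0, whereas nr1d1 (2.76) and nfil3-5 (-2.80) mark the ends of the scale.

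All 6 activator genes were lower at 24 months, with a median log2 fold change of -1.67. The gene npas2, which encodes a partner of BMAL used in place of CLOCK, was at 4.73, 4.25, 3.81, 3.96 and 5.15 CPM at 24 months, against 34.8, 36.3, 17.4, 26.8 and 33.0 CPM at 6 months. Every 6-month pool was thus above every 24-month brain, and the level was 6.77-fold lower at 24 months (log2 fold change -2.76 ± 0.24 SE, adjusted p = 8.17e-08). For arntl1a, 1 of the zebrafish BMAL1 copies, the values were 15.6, 14.7, 15.8, 17.5 and 17.1 CPM at 24 months and 51.4, 49.9, 42.5, 50.03 and 48.1 CPM at 6 months. This is a 3.00-fold lower mean at 24 months, 16.1 ± 1.14 CPM against 48.4 ± 3.49 CPM (SD, n = 5 each, log2 fold change -1.58 ± 0.09, adjusted p = 1.70e-10). The second copy, arntl1b, fell likewise, at 7.41 to 10.5 CPM against 28.7 to 37.0 CPM (-1.89 ± 0.12, adjusted p = 5.32e-10). The more distant paralogue arntl2 (current symbol bmal2) was at 1.34 to 2.02 CPM at 24 months and 5.17 to 7.08 CPM at 6 months (-1.75 ± 0.17, adjusted p = 2.81e-07).

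The clock and clock3 genes, which encode the other partner of BMAL, changed less. The gene clock was at 32.1, 26.6, 20.3, 29.7 and 24.7 CPM at 24 months and 51.5, 54.6, 45.6, 47.6 and 50.7 CPM at 6 months, which is 1.87-fold lower at 24 months (-0.91 ± 0.14, adjusted p = 1.43e-04). Its relative clock3 was at 29.1 to 37.8 CPM against 46.6 to 54.9 CPM (-0.56 ± 0.14, adjusted p = 0.01). Neither pair of ranges overlapped, but clock3 no longer passed without pools 2 and 5 (-0.48, adjusted p = 0.079).

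Of the 12 period and cryptochrome genes tested, 3 were higher and 4 lower. The 12 are not all inhibitors of the loop, since they include the photolyase relative cry5, and they leave out cry2a. The period genes per1a and per1b, which are driven by the CLOCK and BMAL pair, were higher at 24 months. For per1a the 5 brains of 24 months gave 87.0, 90.4, 79.9, 109.5 and 65.2 CPM, against 16.2, 11.2, 29.9, 26.7 and 21.0 CPM in the 6-month pools. The lowest brain of 24 months was above the highest pool, and the gene was 4.12-fold higher (2.04 ± 0.22, adjusted p = 1.75e-06). For per1b the values were 421, 342, 392, 425 and 416 CPM at 24 months and 110.5, 97.7, 173, 153 and 129 CPM at 6 months (1.59 ± 0.15, adjusted p = 1.84e-07), again without overlap. By contrast, per2, a period gene that light induces in zebrafish, was lower, at 75.9, 53.9, 83.7, 97.1 and 120.2 CPM at 24 months against 179.5, 173, 190.4, 205 and 181 CPM at 6 months (-1.11 ± 0.18, adjusted p = 3.25e-04). The third period gene, per3, had 77.1 to 163 CPM at 24 months and 49.5 to 81.1 CPM at 6 months and did not pass the test (0.76 ± 0.31, adjusted p = 0.097).

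Cryptochromes moved in both directions. The smallest p of all genes in the lower direction belonged to cry2a (current symbol cry3a), a cryptochrome outside the clock lists, which was at 114, 98.3, 129, 116 and 127 CPM at 24 months and 452, 421, 408, 464 and 438 CPM at 6 months. Within each age these values were tightly grouped, and the gene was 3.74-fold lower at 24 months (-1.90 ± 0.07, adjusted p = 1.73e-14). The copy cry2b (current symbol cry3b) was at 42.4, 33.1, 64.6, 47.1 and 43.6 CPM against 162, 164, 128, 166 and 157 CPM (-1.75 ± 0.15, adjusted p = 6.88e-08). The gene listed as cry3 went the other way, at 150.2, 132, 139, 132 and 132 CPM at 24 months and 52.6, 53.4, 63.3, 57.0 and 52.0 CPM at 6 months, 2.46-fold higher at 24 months (1.299 ± 0.09, adjusted p = 1.48e-09). The photolyase relative cry5 was lower, at 2.48 to 4.94 CPM at 24 months against 7.25 to 13.2 CPM at 6 months (-1.37 ± 0.19, adjusted p = 9.56e-05). For cry4 the ranges overlapped (23.7 to 38.2 CPM at 24 months, 34.5 to 45.4 CPM at 6 months, -0.38 ± 0.12, adjusted p = 0.044), and the call ended without any of 8 of the 10 libraries, the exceptions being replicate 3 of 24 months and pool 1 of 6 months (adjusted p = 0.07 to 0.15). The cryptochrome cry1a, which light also induces in zebrafish, differed little (185 ± 15.8 CPM at 24 months and 203 ± 7.64 CPM at 6 months, SD, n = 5 each, adjusted p = 0.18).

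**Figure D2:**
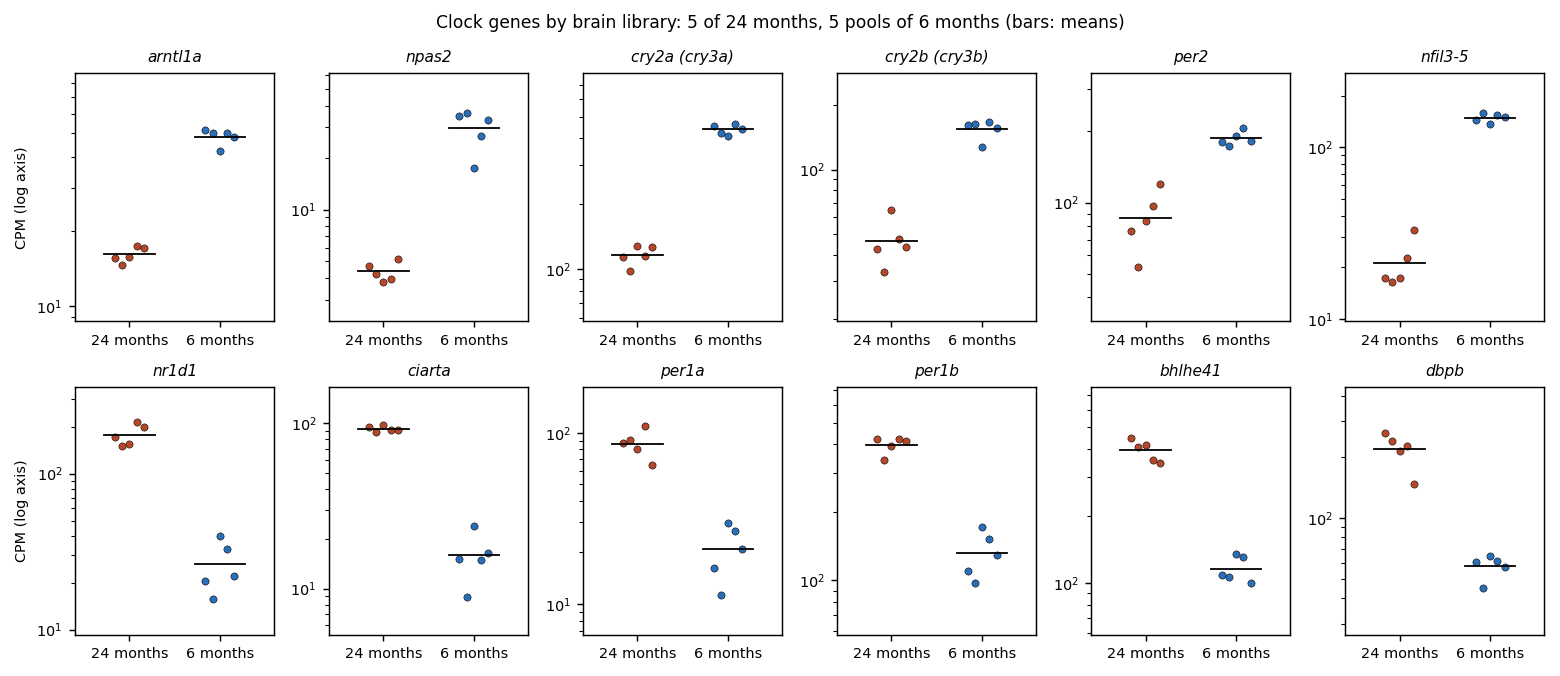
Each panel gives 1 gene in CPM on a log axis for the 5 libraries of 24 months (left) and the 5 pools of 6 months (right). Bars are at the means. All are of the clock lists except cry2a, a cryptochrome gene outside them. The ages do not overlap in any of the 12 panels, from arntl1a (14.7 to 17.5 CPM at 24 months, 42.5 to 51.4 CPM at 6 months) to dbpb (148 to 262 CPM at 24 months, 44.99 to 64.8 CPM at 6 months).

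Of 13 genes, the Rev-erb, ROR and Dec genes together with the repressor gene ciarta, 6 were higher and 4 lower. The Rev-erb gene nr1d1, a repressor of BMAL transcription, showed the largest increase of any clock gene. It was at 172, 149.8, 155, 213 and 198 CPM at 24 months, against 20.5, 15.7, 39.9, 33.0 and 22.2 CPM at 6 months. All brains of 24 months were well above all pools, and the gene was 6.76-fold higher (2.76 ± 0.19, adjusted p = 1.59e-09). Its relative nr1d2b rose 1.89-fold, with 474 to 539 CPM at 24 months against 215 to 327 CPM at 6 months (0.92 ± 0.10, adjusted p = 3.09e-06). The copy nr1d2a was lower instead, at 115, 134, 100.5, 181 and 177 CPM against 233, 164, 302, 275 and 229.9 CPM (-0.77 ± 0.24, adjusted p = 0.035). Its ages overlapped, and the call was lost without replicate 1, 2 or 3 of 24 months or without pool 1, 3, 4 or 5 of 6 months (adjusted p = 0.057 to 0.10). The small increase of nr1d4b (16.3 to 25.6 CPM against 13.5 to 16.5 CPM, 0.48 ± 0.16, adjusted p = 0.048) was likewise lost without replicate 1, 3 or 4 of 24 months or pool 1, 2, 3 or 5 of 6 months (adjusted p = 0.058 to 0.093).

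The repressor gene ciarta, listed as C19H1orf51 (1 of 2), whose mammalian counterpart represses the CLOCK and BMAL pair, was at 95.2, 88.0, 97.8, 91.0 and 91.1 CPM at 24 months and 15.02, 8.95, 24.0, 14.9 and 16.4 CPM at 6 months. The 24-month values lay close together and were 5.84-fold above the 6-month ones (2.55 ± 0.17, adjusted p = 5.32e-10). The Dec gene bhlhe41 was at 449, 407, 417, 356 and 345 CPM at 24 months and 109, 106, 135, 131 and 99.7 CPM at 6 months (1.76 ± 0.11, adjusted p = 1.70e-10). Its partner bhlhe40 rose less, with 542 to 657 CPM at 24 months and 284 to 401 CPM at 6 months (0.84 ± 0.09, adjusted p = 1.13e-06). Of the ROR genes, activators of BMAL transcription, rorcb was at 1.597, 1.09, 1.06, 1.77 and 2.59 CPM at 24 months and 11.7, 10.6, 8.62, 10.8 and 13.1 CPM at 6 months, 6.72-fold lower (-2.75 ± 0.24, adjusted p = 5.00e-08). The copy rorca fell as well, at 13.8 to 19.7 CPM against 29.5 to 39.1 CPM (-1.10 ± 0.16, adjusted p = 1.59e-04). The small difference of rorab (112 ± 7.16 CPM at 24 months, 129.6 ± 9.48 CPM at 6 months, SD, n = 5 each, adjusted p = 0.039) was lost without any 1 library other than pool 1 of 6 months (adjusted p = 0.051 to 0.19).

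The bZIP output genes changed in both directions, 4 higher and 5 lower of 10 tested. The activators dbpa, dbpb, tefa and tefb were higher at 24 months, whereas hlfb, of the activator kind too, and the nfil3 genes that passed the test, whose mammalian counterpart represses through the same sites, were lower. For dbpb the values were 262, 239, 213, 227 and 148 CPM at 24 months and 60.3, 44.99, 64.8, 61.2 and 56.9 CPM at 6 months (3.78-fold, 1.92 ± 0.14, adjusted p = 3.26e-09). For dbpa they were 89.7 to 137 CPM against 33.96 to 55.0 CPM (1.38 ± 0.13, adjusted p = 3.21e-07). Neither gene overlapped between the ages. The tef genes, expressed at higher levels, changed by smaller factors, with 267 to 328 CPM against 180.0 to 231 CPM for tefa (0.58 ± 0.07, adjusted p = 1.23e-05) and 442 to 612 CPM against 347 to 390.4 CPM for tefb (0.54 ± 0.10, adjusted p = 0.0013).

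Among the repressors, nfil3-5 was at 17.3, 16.5, 17.3, 22.6 and 33.1 CPM at 24 months and 144, 159, 137, 154 and 151 CPM at 6 months. This was the largest decrease of any clock gene, 6.96-fold (-2.80 ± 0.18, adjusted p = 5.32e-10). The relative nfil3-2 was at 3.68, 2.37, 3.52, 4.08 and 9.30 CPM at 24 months and 18.96, 19.8, 18.1, 18.1 and 18.9 CPM at 6 months (-2.03 ± 0.25, adjusted p = 1.39e-05). In both genes replicate 5 of 24 months was the highest of its age and still below every pool. The gene nfil3 itself was at 5.98 to 10.9 CPM against 15.97 to 19.99 CPM (-1.15 ± 0.14, adjusted p = 1.28e-05). The decreases of nfil3-6 (174 to 396 CPM against 409 to 727 CPM, -0.91 ± 0.25, adjusted p = 0.02) and hlfb (10.9 to 17.8 CPM against 19.98 to 27.05 CPM, -0.82 ± 0.23, adjusted p = 0.022) did not survive all changes of libraries. The call for nfil3-6 ended without replicate 1 or 3 of 24 months or pool 3 of 6 months (adjusted p = 0.053 to 0.06), and that for hlfb without replicate 3 or 5 of 24 months (adjusted p = 0.056 and 0.052).

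A few genes outside the lists had p-values as small as those of the clock genes. The gene listed as SMU1 (current symbol smu1b), a copy of a splicing-associated gene, was at 234, 202, 228, 251 and 152 CPM at 24 months and 39.4, 38.1, 46.6, 54.7 and 41.9 CPM at 6 months, 4.83-fold higher (2.27 ± 0.14, adjusted p = 3.57e-10). The gene impdh1b, which encodes an enzyme of guanine nucleotide synthesis, was at 16.4 to 21.6 CPM against 47.0 to 55.9 CPM (-1.49 ± 0.11, adjusted p = 3.26e-09). A RING finger gene, lonrf1 (current symbol lonrf4), was at 58 to 72.6 CPM against 107 to 122 CPM (-0.84 ± 0.07, adjusted p = 1.37e-08). In all 3 the libraries of both ages were apart.

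The clock difference was not a steady trend over the 5 ages sampled. The level of nr1d1 averaged 26.3 CPM at 6 months, 42.8 CPM at 12 months, 177 CPM at 24 months, 332 CPM at 36 months and 60.001 CPM at 42 months. In the same order arntl1a averaged 48.4, 37.3, 16.1, 12.9 and 44.7 CPM, and nfil3-5 averaged 149, 53.4, 21.3, 19.2 and 178 CPM. Brains of 24 and 36 months thus lay on the same side of the other ages for these genes, though nr1d1 was higher still at 36 months. Brains of 42 months lay nearer to those of 6 months than to those of 24 months. For cry2a the lowest mean was at 24 months, in the order 437, 406, 117, 199.7 and 350.1 CPM. Set against 12 months, where each library also came from 1 fish, 28 of the 41 clock genes differed at 24 months, against 8.55% of all genes in that comparison. There nr1d1 was 2.05 ± 0.19 higher on the log2 scale at 24 months (adjusted p = 3.06e-07) and arntl1a was lower (-1.21, adjusted p = 1.57e-08). Both comparisons share the libraries of 24 months.

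**Figure D3:**
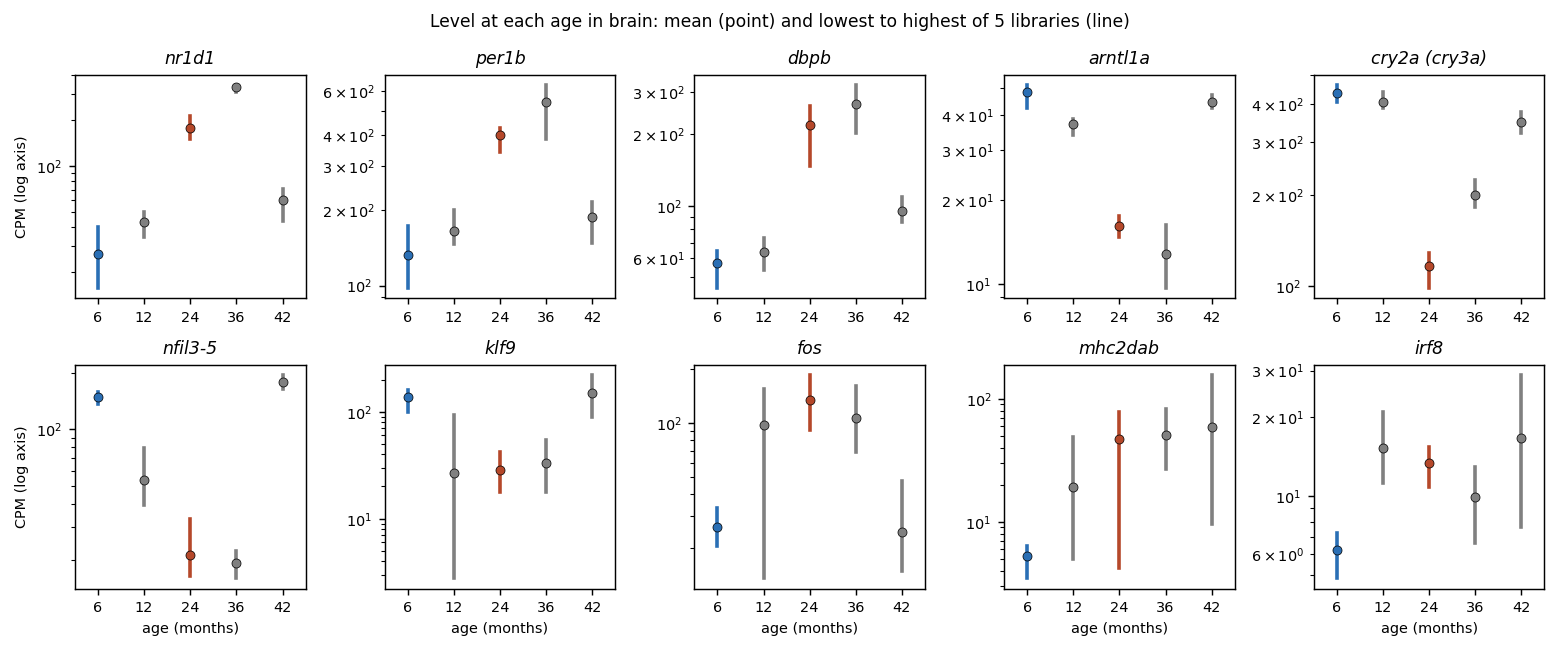
For 10 genes the mean level in brain (point) and the lowest to highest of 5 libraries (line) are plotted in CPM on a log axis at 6, 12, 24, 36 and 42 months, with 24 months in red and 6 months in blue. The clock genes nr1d1, per1b and dbpb peak at 36 months with 24 months next, whereas klf9 and fos are alike at 12, 24 and 36 months and differ at 6 and 42 months.

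Skin was available from the same ages, also of fish with no listed transgene, with 5 libraries each of 1 fish, and 4 of the 24-month fish gave both tissues, as did 1 fish of each of 2 pools of 6 months. In the joint fit of both tissues the age difference in brain departed from that in skin in 12 of the 41 clock genes, against 10.9% of the 24756 genes tested there. With the fish as a block, a fit that rests on the fish that gave both tissues, 5 of the 12 were called (per1a, cry5, tefb, hlfb and nfil3-5), against 4.54% of all genes. In limma voom over all 50 libraries with the fish as a random block, all 12 were called, against 10.7% of all genes. Skin values here are from the joint fit without the block, in which the brain comparison called 1435 genes (5.8%). In skin 20 of the 41 clock genes differed between the ages, against 25.6% of all genes. The 32 called in brain came from the fit of brain alone, so the 2 counts are not alike. In the joint fit bhlhe40, nfil3-6 and nr1d2a, among others, did not pass in brain (adjusted p = 0.059, 0.17 and 0.56). Among the 20 in skin were nr1d1 (1.69), dbpb (1.68), per1b (1.06), npas2 (-1.52) and arntl1b (-1.27), which moved as in brain. For these genes the tissues were not shown to differ (adjusted p = 0.061 to 0.66). In skin ciarta rose (0.83, adjusted p = 0.008) and cry5 fell (-2.51, adjusted p = 4.55e-09) as in brain. The increase of ciarta was 1.72 greater in brain on the log2 scale (adjusted p = 8.45e-04, 0.093 with the fish as a block, 8.0e-04 with the random block). The decrease of cry5 was greater in skin. For per1a, nr1d2b, arntl2, rorcb, nfil3 and tefa skin had log2 fold changes of 0.41, 0.21, -0.13, -0.56, 0.04 and -0.27, none of which passed. For nfil3-5 skin had a log2 fold change of -0.08 (adjusted p = 0.89), and the difference of brain from skin was -2.71 (adjusted p = 3.74e-04). Skin went the opposite way in hlfb, where it rose by 2.05 (adjusted p = 1.56e-06, difference -2.86, adjusted p = 2.24e-05), and in tefb, where it fell by 0.56 (adjusted p = 0.012, difference 1.103, adjusted p = 0.0021). In the joint fit the decrease of hlfb in brain did not itself pass (-0.81, adjusted p = 0.070). The ROR gene roraa fell in skin (-0.9996, adjusted p = 4.18e-04), with 0.13 in brain (adjusted p = 0.80). For cry2a, outside the clock lists, the decrease was greater in skin (-2.73, difference 0.83, adjusted p = 0.0044, 0.064 with the fish as a block, 0.0013 with the random block).

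Immediate early genes are switched on by neurons and other cells within minutes of a stimulus. At 24 months 9 of 30 tested were higher and 0 lower (30% changed, against 13.9% of all genes). Their median log2 fold change was 0.51, against 0.00 over all genes. The transcription factor gene fos was at 150.2, 127, 187, 122 and 91.2 CPM at 24 months and 20.8, 20.5, 33.3, 30.3 and 24.95 CPM at 6 months, 5.21-fold higher (2.38 ± 0.46, adjusted p = 0.0017). The gene egr1 was at 1366, 914, 1118, 1184 and 593 CPM against 264, 261, 326, 298 and 239.7 CPM (1.90 ± 0.33, adjusted p = 7.03e-04). For egr4, listed as zgc:175128, the values were 392, 184, 298, 265 and 118 CPM against 29.5, 33.0, 42.8, 40.0 and 29.3 CPM (2.85 ± 0.42, adjusted p = 1.43e-04). In these 3 genes replicate 5 of 24 months was the lowest of its age and still above every pool. The antiproliferative gene btg2 was at 70.31 to 156 CPM against 27.09 to 38.8 CPM (1.75 ± 0.35, adjusted p = 0.0021). At 12 months fos averaged 97.2 CPM and at 42 months 24.4 CPM, and neither fos nor egr1 passed the test between 24 and 12 months (adjusted p = 0.54 and 0.3). The count of higher genes was 5 without pools 2 and 5 and 1 without pools 1, 2 and 5, with the median at 0.51 and 0.45, and 15 where the fit held only the 10 libraries of 6 and 24 months. In skin egr1 rose by 2.43 on the log2 scale (adjusted p = 0.0015), fos by 1.90 (adjusted p = 0.019) and btg2 by 1.51 (adjusted p = 0.0055). For egr1, fos and btg2 the tissues were not shown to differ (adjusted p = 0.71 to 0.83). By contrast, egr4 was not shown to change in skin (-0.40, adjusted p = 0.64).

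Of 24 genes that respond to glucocorticoid hormones 1 was higher and 4 were lower (20.8% changed, against 13.9% of all genes). The decreases included large ones. The transcription factor gene klf9, a direct target of the glucocorticoid receptor, was at 20.1, 32.6, 17.7, 42.3 and 30.8 CPM at 24 months and 154, 100.3, 161, 129 and 143 CPM at 6 months, 4.79-fold lower (-2.26 ± 0.59, adjusted p = 0.015). The receptor co-chaperone gene fkbp5 was at 93.4, 208, 63.7, 199 and 149.8 CPM against 707, 514, 755, 680.3 and 723 CPM (-2.24 ± 0.60, adjusted p = 0.016). The ages were well apart in both genes. Like fos in the opposite direction, both were alike at 12, 24 and 36 months, with means of 26.96, 28.7 and 33.5 CPM for klf9, and high at 6 and 42 months (138 and 150.1 CPM). The enzyme gene hsd11b2, which inactivates cortisol, was at 11.6 to 30.1 CPM against 33.9 to 75.1 CPM (-1.34 ± 0.35, adjusted p = 0.014), and its call was lost without pool 5 (adjusted p = 0.057). The list had 1 higher and 2 lower genes without pool 5 alone, the same counts without pools 2 and 5, and 1 higher and 0 lower without pools 1, 2 and 5. The single gene higher was per1a.

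Genes of the cytosolic heat shock system, which keeps proteins folded, changed in both directions. Of 57 tested, 7 were higher, hsp70 copies among them, and 11 were lower, subunits of the CCT chaperonin among them (6 and 4 without pools 2 and 5). In all 31.6% changed, against 13.9% of all genes. The lower count was 7 without any 1 library other than replicate 5 of 24 months and pool 1. The heat shock factor gene hsf2 was at 89.7, 95.4, 75.0, 75.8 and 75.5 CPM at 24 months and 25.1, 23.4, 35.7, 32.0 and 30.4 CPM at 6 months, 2.81-fold higher (1.49 ± 0.12, adjusted p = 2.65e-08). The inducible chaperone gene hsp70l was at 10.7, 9.53, 5.04, 8.57 and 6.53 CPM against 1.404, 2.67, 3.45, 2.35 and 1.61 CPM (1.81 ± 0.25, adjusted p = 6.92e-05), and hsp70.2 (1.51 ± 0.19) and hsp70.3 (1.46 ± 0.18) rose with it. These hsp70 copies are near-identical in sequence, so the division of reads among them is uncertain. Of the 8 subunits of the chaperonin, which folds actin and tubulin, 5 were lower and 0 higher, with log2 fold changes of -0.41 to -0.16. Smaller decreases were also seen in fkbp4 (-0.56 ± 0.10, adjusted p = 6.82e-04) and in the abundant cytosolic chaperone gene hsp90ab1 (1971 CPM at 24 months, 2404 CPM at 6 months, -0.29 ± 0.06, adjusted p = 0.0023). The summed level of the 59 genes of the list that were found was 6513 to 6976 CPM at 24 months and 7420 to 8099 CPM at 6 months, without overlap.

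**Figure D4:**
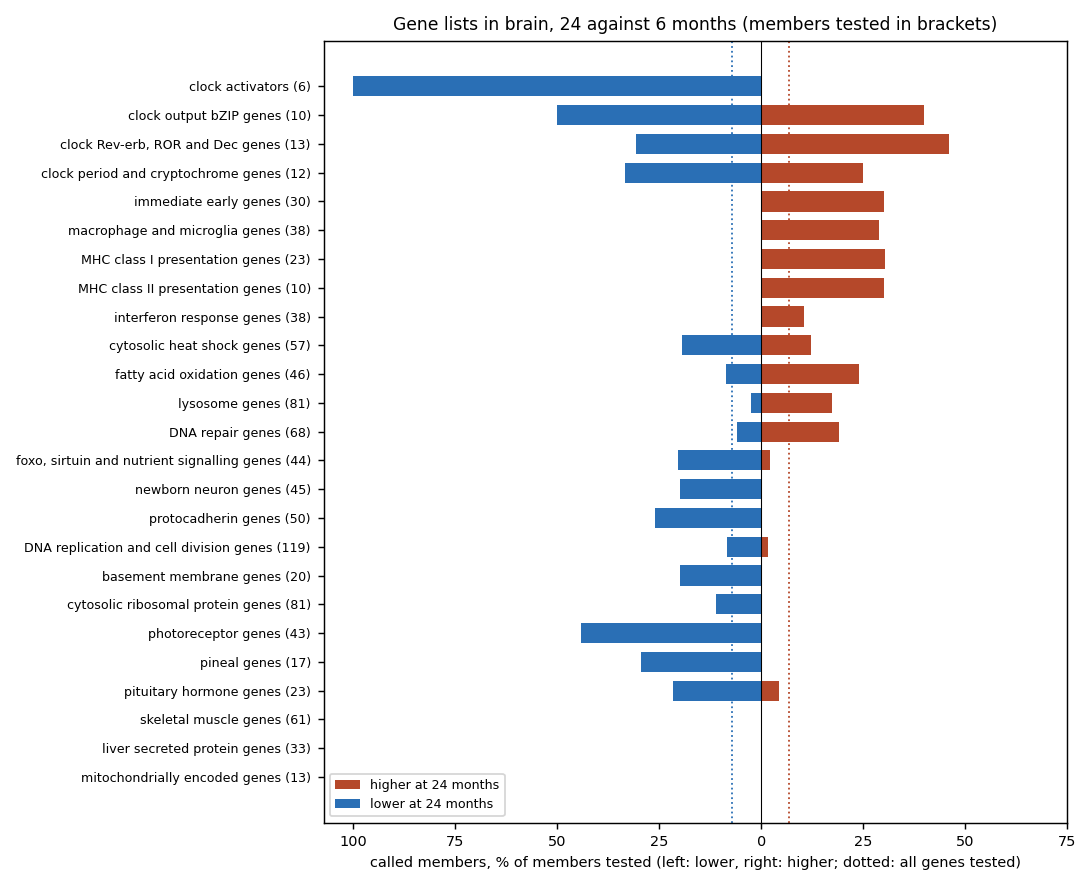
For 25 gene lists the bars give the share of tested members that were higher (red, right) or lower (blue, left) at 24 months, with the number tested in brackets and dotted lines at the shares over all genes (6.83% and 7.06%). The macrophage, MHC and interferon lists reach only to the right, the newborn neuron, protocadherin and photoreceptor lists only to the left, and the skeletal muscle, liver and mitochondrially encoded lists hold no changed gene.

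Most immune genes that passed the test were higher at 24 months. Among macrophage and microglia genes 11 of 38 were higher and 0 lower (28.95% changed, against 13.9% of all genes). Their median log2 fold change was 0.48. The transcription factor gene irf8, needed for the macrophage lineage, was at 14.1, 15.4, 11.11, 15.17 and 10.8 CPM at 24 months and 6.56, 7.25, 6.59, 5.95 and 4.86 CPM at 6 months, 2.13-fold higher (1.09 ± 0.28, adjusted p = 0.011). The receptor gene P2RY12, a microglia marker in mammals, was at 1.86, 1.09, 1.35, 2.93 and 1.68 CPM against 0.62, 0.968, 0.862, 0.752 and 0.457 CPM (1.28 ± 0.29, adjusted p = 0.0059). Of the galectin 3 binding protein family, LGALS3BP (2 of 3) (current symbol lgals3bp.2) was at 16.7, 10.9, 7.30, 13.4 and 3.32 CPM against 3.23, 3.05, 0.931, 1.83 and 1.7997 CPM (2.24 ± 0.38, adjusted p = 5.27e-04). Its neighbour lgals3bpa was at 1.305 to 9.84 CPM against 0.448 to 2.14 CPM (2.54 ± 0.45, adjusted p = 7.79e-04), with replicate 5 of 24 months inside the 6-month range. Reads of these related copies may be split, so each value is uncertain. The defining macrophage genes mpeg1 (37.9 CPM at 24 months, 30.3 CPM at 6 months, adjusted p = 0.34) and csf1ra (21.8 and 19.8 CPM, adjusted p = 0.74) did not pass. The count of higher macrophage genes changed with single libraries. It was 5 without replicate 2 of 24 months or pool 1 of 6 months. It was 6 without replicate 1 of 24 months or pool 3 or 5 of 6 months. Without pool 4 there were 6 higher and 1 lower. Without pools 2 and 5 it was 7, and irf8 narrowly failed (adjusted p = 0.057). Over all genes the count of changed genes fell too, from 3198 to between 2099 and 2686 without 1 of these libraries and to 1560 without pools 2 and 5.

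Antigen presentation moved the same way, with 7 of 23 MHC class I presentation genes and 3 of 10 class II presentation genes higher and 0 lower. These were 30.4% and 30% of the genes tested, against 13.9% changed among all genes. The gene BX324231.1 (current symbol tap2t), of the peptide transporter family, was at 16.5, 17.0, 17.8, 14.9 and 14.9 CPM at 24 months and 10.7, 10.9, 10.6, 9.68 and 10.7 CPM at 6 months (0.63 ± 0.11, adjusted p = 8.56e-04). NLRC5, whose mammalian counterpart activates class I genes, was at 10.5 to 16.1 CPM against 5.42 to 8.49 CPM (0.83 ± 0.22, adjusted p = 0.015). The class II gene mhc2dab was at 4.17, 48.5, 52.9, 50.6 and 78.2 CPM at 24 months, against 5.32, 3.46, 6.11, 5.13 and 6.31 CPM at 6 months. Replicate 1 of 24 months was thus within the 6-month range and the other 4 were far above it (3.15 ± 0.76, adjusted p = 0.0086). It belongs to a multigene family whose copies differ between fish, so its reads are uncertain, and the call was lost without pools 2 and 5 (adjusted p = 0.061). The class I count was 5 without pools 2 and 5 and the class II count was 1.

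Of 38 interferon response genes 4 were higher and 0 lower (10.5% changed, against 13.9% of all genes), with a median of 0.57. Of 43 inflammatory cytokine and NF-kB genes 7 were higher and 2 lower (5 and 0 without pools 2 and 5), and of 19 neutrophil genes 0 were higher and 1 lower. The shares changed were 20.9% and 5.26%, against 13.9% of all genes. The cytokine signalling inhibitor gene socs1 was at 3.36, 4.70, 6.71, 8.25 and 7.07 CPM at 24 months and 2.28, 1.88, 1.31, 1.05 and 2.50 CPM at 6 months, 3.33-fold higher (1.73 ± 0.31, adjusted p = 9.72e-04). The Toll-like receptor adaptor gene myd88 was at 7.04 to 9.56 CPM against 4.68 to 5.69 CPM (0.64 ± 0.11, adjusted p = 5.90e-04). The interferon signalling factor gene stat1a was at 209, 170.3, 271, 169.7 and 155 CPM against 148, 144, 148, 144 and 136 CPM (0.44 ± 0.13, adjusted p = 0.032), but this call ended without replicate 1 or 3 of 24 months or pool 1 or 5 of 6 months (adjusted p = 0.052 to 0.092). The interferon count was 2 without pool 5 and 2 without pools 2 and 5. Lymphocyte genes were higher in 3 of 30 and lower in 0 (10% changed, against 13.9% of all genes), with 1 higher without replicate 2 of 24 months and 2 without pools 2 and 5. Complement and acute phase genes changed in 0 of 35, with a median of -0.82, but the median was -0.09 without pool 1 of 6 months. Their summed level was highest in pool 1, at 1537 CPM against 399 to 1231 CPM in all other libraries. In skin NLRC5 was lower at 24 months (-0.85, adjusted p = 0.0027), as were lgals3bpa (-1.59, adjusted p = 0.0077) and stat1a (-0.39, adjusted p = 0.03). The differences between the tissues were 1.69, 4.13 and 0.83 on the log2 scale (adjusted p = 3.74e-04, 1.30e-04 and 0.004). By contrast, myd88 rose in skin also (0.37, adjusted p = 0.018) and the tissues were not shown to differ (0.28, adjusted p = 0.29).

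Genes of newborn neurons were lower at 24 months in 9 of 45 and higher in 0 (20% changed, against 13.9% of all genes). Their median log2 fold change was -0.21. The count of lower genes was 8 without pools 2 and 5. The transcription factor gene sox4a, expressed in immature neurons, was at 84.0, 75.0, 91.3, 62.5 and 93.4 CPM at 24 months and 135, 134, 160.1, 133 and 131 CPM at 6 months, 1.71-fold lower (-0.77 ± 0.09, adjusted p = 7.09e-06). The neurogenic factor gene insm1a was at 12.3, 8.16, 13.1, 7.45 and 10.4 CPM against 21.2, 24.5, 15.9, 19.4 and 28.1 CPM (-1.09 ± 0.20, adjusted p = 0.0011). Of 119 genes of DNA replication and cell division 10 were lower and 2 higher, in all 10.1% against the 13.9% of all genes, with a median of -0.24. The proliferation marker MKI67 was at 6.16, 5.31, 3.58, 5.203 and 8.57 CPM against 11.4, 11.06, 12.4, 11.2 and 13.2 CPM, 2.06-fold lower (-1.04 ± 0.22, adjusted p = 0.0039), and rrm2, of the enzyme that makes deoxyribonucleotides, was at 4.29 to 6.53 CPM against 7.25 to 10.4 CPM (-0.71 ± 0.14, adjusted p = 0.0019). These genes did not overlap between the ages. The number of lower cell division genes was 6 without replicate 2 of 24 months or without pool 5, 19 without replicate 5 of 24 months, and 4 without pools 2 and 5, while 6 were higher without replicate 4 of 24 months. In skin both genes rose at 24 months, MKI67 by 1.23 (adjusted p = 9.80e-05) and rrm2 by 1.12 (adjusted p = 5.39e-04). In the joint fit that gave these values the decrease of rrm2 in brain did not itself pass (-0.71, adjusted p = 0.075). The tissues differed by -2.26 for MKI67 and -1.83 for rrm2 (adjusted p = 3.55e-05 and 5.30e-04). With the fish as a block MKI67 passed (-1.89, adjusted p = 0.017) and rrm2 did not (-1.196, adjusted p = 0.12). In limma voom with the fish as a random block MKI67 and rrm2 both passed (adjusted p = 1.79e-05 and 0.0019).

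Glial lists held no larger share of changed genes than the 13.9% over all genes, at 3 of 30 myelin and oligodendrocyte genes (10%) and 5 of 44 radial glia and astroglia genes (11.4%). The 3 oligodendrocyte genes were all higher, and these encode transcription factors of the lineage rather than myelin proteins. The gene sox10 was at 62.0, 58.9, 40.1, 66.1 and 44.4 CPM at 24 months and 19.3, 24.4, 26.6, 27.6 and 17.3 CPM at 6 months (2.36-fold, 1.24 ± 0.20, adjusted p = 4.27e-04), and olig2 was at 46.6 to 55.8 CPM against 22.5 to 36.2 CPM (0.81 ± 0.19, adjusted p = 0.006). The myelin genes mbpa and plp1b had log2 fold changes of -0.51 ± 0.21 (adjusted p = 0.10) and -0.46 ± 0.18 (adjusted p = 0.084), and passed only where the fit was limited to the 10 libraries of 6 and 24 months (adjusted p = 0.038 and 0.032). Of the radial glia and astroglia genes 4 were higher and 1 lower. The radial glia gene fabp7a, a fatty acid binding protein, was at 618, 636, 642, 615 and 568 CPM against 398, 477, 466, 451 and 411 CPM (0.48 ± 0.09, adjusted p = 0.0013), and the glial factor gene sox9b was at 22.7 to 35.14 CPM against 13.1 to 14.8 CPM (1.09 ± 0.22, adjusted p = 0.0026). The astroglial calcium-binding gene s100b was at 637 to 1157 CPM against 492 to 581 CPM (0.59 ± 0.16, adjusted p = 0.019), a call that ended without replicate 3 of 24 months (adjusted p = 0.057). Without pools 2 and 5 there were 3 higher oligodendrocyte genes and 2 higher radial glia and astroglia genes, and without pools 1, 2 and 5 there were 0 of each.

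Among neuronal genes, 13 of 50 protocadherins, cell adhesion genes of neurons, were lower and 0 higher (26% changed, against 13.9% of all genes). Protocadherins had a median of -0.35 and a summed level of 1992 to 2385 CPM at 24 months and 2354 to 2750 CPM at 6 months. Their clustered members share exons, so that reads of single copies are uncertain, and the count of lower genes was 6 or 7 without any 1 library other than replicate 4 of 24 months, and 4 without pools 2 and 5. Synapse and mature neuron genes were changed in 6 of 60 (10%, against 13.9% of all genes), with 5 lower. Their largest decrease was in stxbp1b, a copy of the gene for a vesicle fusion protein, at 4.303, 4.01, 5.13, 3.84 and 3.32 CPM at 24 months and 20.4, 7.22, 16.2, 12.5 and 16.3 CPM at 6 months (3.53-fold, -1.82 ± 0.44, adjusted p = 0.0088). The number of lower synapse genes was 2 without pool 2, without pool 3 or without pools 2 and 5, and 3 without replicate 1, 2, 3 or 5 of 24 months or pool 1 or 5. The Nogo receptor-like gene rtn4rl2b gave the 6-month pools the same order, at 4.53, 3.52, 5.16, 5.35 and 6.26 CPM against 64.0, 11.12, 35.3, 28.7 and 44.2 CPM (-2.88 ± 0.69, adjusted p = 0.0084). In both genes pool 2 was the lowest and pool 1 the highest at 6 months. The DNA demethylase gene tet1 was at 16.4, 11.9, 9.32, 17.8 and 10.1 CPM against 38.8, 34.8, 35.5, 47.4 and 51.9 CPM, 3.18-fold lower (-1.67 ± 0.26, adjusted p = 2.06e-04).

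Genes of blood vessels changed in both directions, with 4 of 43 higher and 4 lower (18.6% changed, against 13.9% of all genes), and with 3 higher and 1 lower without pools 2 and 5. The drug efflux pump gene abcb4 was at 112, 142, 111, 144 and 111 CPM at 24 months and 70.7, 76.4, 78.9, 82.5 and 64.5 CPM at 6 months (0.73 ± 0.10, adjusted p = 4.95e-05). The endothelial factor gene fli1b (current symbol fli1rs) was at 17.0 to 21.0 CPM against 8.57 to 12.8 CPM (0.84 ± 0.14, adjusted p = 5.93e-04). The lipid transporter gene mfsd2ab, whose mammalian counterpart acts at the blood-brain barrier, was lower, at 45.1, 59.7, 59.8, 90.6 and 53.8 CPM against 126, 93.5, 157, 195 and 97.0 CPM (-1.11 ± 0.22, adjusted p = 0.0022). The defining endothelial genes kdrl (121 CPM at 24 months, 129 CPM at 6 months, adjusted p = 0.68) and cdh5 (18.3 and 20.3 CPM, adjusted p = 0.65) did not pass.

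Of 20 basement membrane genes 4 were lower and 0 higher (20% changed), and of 32 collagen genes 6 were lower and 1 higher (21.9% changed), against 13.9% of all genes. The laminin gene lama4 was at 37.0 to 47.7 CPM at 24 months and 53.1 to 62.6 CPM at 6 months (-0.43 ± 0.09, adjusted p = 0.0022), and agrn, which encodes the matrix proteoglycan agrin, was at 118 to 175 CPM against 176 to 209 CPM (-0.48 ± 0.11, adjusted p = 0.005). The membrane-bound protease gene mmp24 was at 47.9, 37.5, 33.1, 52.3 and 38.6 CPM against 94.6, 66.6, 73.6, 74.6 and 95.5 CPM (-0.95 ± 0.22, adjusted p = 0.007). The type IV collagen gene col4a1 overlapped in replicate 5 of 24 months (19.9 to 36.8 CPM against 34.5 to 48.8 CPM, -0.71 ± 0.18, adjusted p = 0.013) and no longer passed without pools 2 and 5 (adjusted p = 0.12). The 1 higher collagen gene, COL14A1 (2 of 2), was at 34.2, 15.5, 10.6, 43.2 and 18.1 CPM against 8.91, 8.28, 9.38, 9.12 and 9.80 CPM (1.42 ± 0.43, adjusted p = 0.031). That call ended without any 1 library other than replicates 2, 3 and 5 of 24 months (adjusted p = 0.051 to 0.082). The number of lower collagen genes was 16 without replicate 5 of 24 months, 2 to 4 without replicate 1, 2, 3 or 4 of 24 months or pool 2, 4 or 5 of 6 months, and 1 without pools 2 and 5. Basement membrane genes were lower in 7 without replicate 5 of 24 months and in 2 without pools 2 and 5.

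Of 44 foxo, sirtuin and nutrient signalling genes tested 9 were lower, 1 was higher and 34 did not pass, with a median log2 fold change of -0.13. The share changed was 22.7%, against 13.9% of all genes. The summed level of the 45 genes found was 1929 to 2181 CPM at 24 months and 2438 to 2551 CPM at 6 months, without overlap. The gene foxo3b, a transcription factor that insulin signalling restrains, was at 139, 134, 139, 164 and 139 CPM at 24 months and 334, 278, 281, 304 and 323 CPM at 6 months, 2.13-fold lower (-1.09 ± 0.11, adjusted p = 1.13e-06). The mitochondrial coactivator gene ppargc1b was at 127, 132, 111, 137 and 104 CPM against 255, 223, 216, 231 and 244 CPM (-0.93 ± 0.15, adjusted p = 2.95e-04). Without pool 5 the list had 6 lower genes and without pools 2 and 5 it had 5. Of 30 IGF and growth hormone genes 5 were lower and 0 higher (16.7% changed, against 13.9% of all genes). Among the lower ones was the IGF binding protein gene igfbp3 (17.6 to 21.9 CPM against 26.5 to 31.3 CPM, -0.51 ± 0.10, adjusted p = 0.0014). The count of lower genes was 3 without replicate 2 of 24 months or without pool 1, 2, 4 or 5 of 6 months, and 1 without pools 2 and 5.

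Fatty acid oxidation genes were higher in 11 of 46 and lower in 4 (8 and 2 without pools 2 and 5), with a median of 0.14. In all 32.6% changed, against 13.9% of all genes. Without replicate 5 of 24 months 7 were higher and the median was 0.03, and the number lower was 1 without replicate 1 of 24 months and 2 without pool 1 or pool 4. The list member acad8, of the acyl-CoA dehydrogenase family, was at 29.2 to 37.4 CPM against 22.8 to 30.3 CPM (0.41 ± 0.09, adjusted p = 0.0047). Its ages overlapped, and it did not pass in brain in the joint fit of both tissues (adjusted p = 0.057). Lysosome genes were higher in 14 of 81 and lower in 2 (19.75% changed, against 13.9% of all genes). There were 8 higher without replicate 2 of 24 months, without pool 1 or without pools 2 and 5. The lysosomal membrane gene cln3 was at 15.8, 15.6, 15.9, 14.8 and 13.9 CPM against 11.3, 11.7, 11.4, 11.3 and 9.62 CPM (0.46 ± 0.07, adjusted p = 1.39e-04). DNA repair genes were higher in 13 of 68 and lower in 4 (6 and 4 without pools 2 and 5, 12 and 7 without replicate 5 of 24 months). Their share changed was 25%, against 13.9% of all genes. The excision repair nuclease gene ercc4 was at 18.5, 16.4, 17.4, 15.3 and 14.7 CPM against 9.11, 10.1, 9.56, 10.3 and 8.35 CPM (0.80 ± 0.11, adjusted p = 1.05e-04), and apex2, an endonuclease gene of base excision repair, was at 6.83 to 11.5 CPM against 4.05 to 6.78 CPM (0.73 ± 0.13, adjusted p = 7.55e-04). None of ercc4, apex2 and cln3 overlapped between the ages. Mitochondrially encoded genes, of which 0 of 13 passed (3 higher without replicate 5 of 24 months), had a median of 0.34 and a summed level of 85960 to 141600 CPM at 24 months and 70920 to 94650 CPM at 6 months.

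Of 85 splicing factor genes 9 were lower and 3 higher, in all 14.1% against the 13.9% of all genes. The number lower was 4 or 5 without any 1 library other than pool 1, and without pools 2 and 5 it was 4, with 3 higher. The RNA-binding protein gene fus was at 129, 122, 133, 124 and 119 CPM at 24 months and 209, 198, 184, 199 and 196 CPM at 6 months (-0.65 ± 0.06, adjusted p = 5.97e-08). The cold-inducible RNA-binding protein gene cirbp (current symbol cirbpb), whose level follows the daily rhythm in mammals, was at 741 to 1006 CPM against 1111 to 1298 CPM (-0.53 ± 0.08, adjusted p = 1.09e-04). The splicing activator gene tra2b went the other way, at 55.7 to 68.0 CPM against 42.1 to 47.4 CPM (0.46 ± 0.07, adjusted p = 1.06e-04). Cytosolic ribosomal protein genes were lower in 9 of 81, with 0 higher. The share changed was smaller than the 13.9% of all genes, though above the 7.06% of all genes that were lower. The count of lower genes was 0 without replicate 1 of 24 months, without pool 2, without pool 5 or without both pools. It was 2 to 4 without replicate 2, 3, 4 or 5 of 24 months or pool 1 or 4.

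Among the genes with the largest changes that no list held, lims2, a focal adhesion gene, was at 17.1, 18.9, 8.86, 16.4 and 2.73 CPM at 24 months and 1.404, 2.29, 1.35, 1.93 and 1.45 CPM at 6 months. Replicate 5 of 24 months was only a little above the highest pool, and the others were well above it (7.58-fold, 2.92 ± 0.53, adjusted p = 0.0011). The transcription factor gene csrnp1a was at 3.23, 5.80, 5.01, 7.24 and 7.64 CPM against 27.9, 17.9, 25.3, 24.1 and 27.3 CPM, 4.22-fold lower (-2.08 ± 0.31, adjusted p = 1.66e-04). Neither was shown to change in skin (adjusted p = 0.36 and 0.75), and the tissues differed in both (3.595 and -2.35, adjusted p = 0.0017 and 0.044), though csrnp1a not with the fish as a block (-1.68, adjusted p = 0.21).

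Among the genes given with values, the largest decreases were in photoreceptor, pineal and pituitary genes, and these rested on which pools were included. Over all genes tested the lowest log2 fold change was -6.83, in a gene outside these lists. Of 43 photoreceptor genes tested 19 were lower and 0 higher (44.2% changed, against 13.9% of all genes), with a median of -1.16. However, 2 were lower without pools 2 and 5 and 0 without pools 1, 2 and 5, when the median was -0.05. Limma voom with quality weights for each age called 4 lower, and the fit to the 10 libraries alone called 7. The transducin gene gngt1 was at 0.163, 0.364, 1.35, 0.148 and 0.142 CPM at 24 months and 12.4, 24.4, 1.07, 1.01 and 24.3 CPM at 6 months (-4.86 ± 0.89, adjusted p = 0.0012). The rod transducin gene gnat1 was at 0.652, 0.88, 6.19, 0.65 and 0.475 CPM against 15.7, 32.8, 2.45, 0.948 and 34.5 CPM (-3.29 ± 0.84, adjusted p = 0.013), and the cone phosphodiesterase gene pde6c was at 1.51 to 2.87 CPM against 8.45, 15.7, 2.35, 1.83 and 15.9 CPM (-2.23 ± 0.45, adjusted p = 0.0023). In each gene pools 1, 2 and 5 were high, while pools 3 and 4 lay within or near the 24-month range. Without pools 1, 2 and 5 the log2 fold changes were -1.27, 0.05 and -0.16 (adjusted p = 0.42, 0.98 and 0.83).

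**Figure D5:**
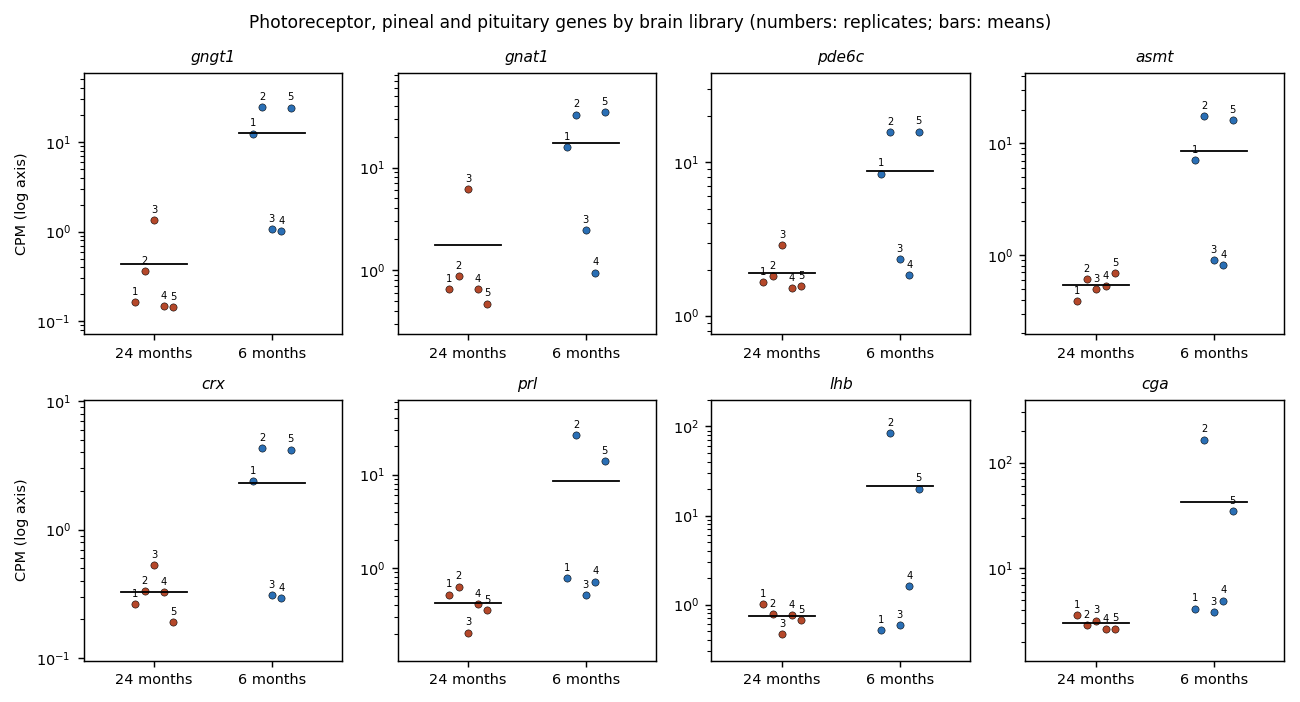
Photoreceptor, pineal and pituitary genes are plotted in CPM on a log axis for the 5 libraries of 24 months (left) and the 5 pools of 6 months (right), with points numbered by replicate and bars at the means. Pools 2 and 5 lie on top in all 8 panels and pool 1 joins them in the photoreceptor and pineal genes, as for asmt at 7.12, 17.6 and 16.01 CPM in pools 1, 2 and 5.

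Genes of the pineal gland, which makes melatonin, followed the same pools. Of 17 tested 5 were lower and 0 higher (29.4% changed, against 13.9% of all genes), and 1 was lower without pools 2 and 5. Leaving out replicate 1, 2 or 3 of 24 months or pool 1, 2 or 5 of 6 months gave 3. The melatonin synthesis gene asmt was at 0.391, 0.607, 0.498, 0.532 and 0.688 CPM at 24 months and 7.12, 17.6, 0.897, 0.818 and 16.01 CPM at 6 months (-3.95 ± 0.68, adjusted p = 6.29e-04). Pools 3 and 4 were slightly above the 24-month range, and without pools 1, 2 and 5 the log2 fold change was -0.67 (adjusted p = 0.50). The photoreceptor and pineal factor gene crx was at 0.19 to 0.528 CPM against 2.38, 4.31, 0.31, 0.294 and 4.22 CPM (-2.81 ± 0.59, adjusted p = 0.003), and without pools 1, 2 and 5 its direction turned to 0.092 (adjusted p = 0.94).

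Of 23 pituitary hormone genes 5 were lower and 1 was higher (26.1% changed, against 13.9% of all genes), with 2 lower without pools 2 and 5. The gene cga, for the alpha subunit shared by glycoprotein hormones, was at 3.59, 2.88, 3.20, 2.66 and 2.68 CPM at 24 months and 4.15, 164, 3.86, 4.94 and 34.8 CPM at 6 months (-3.82 ± 0.75, adjusted p = 0.002). Prolactin (prl) was at 0.205 to 0.637 CPM against 0.783, 26.4, 0.517, 0.719 and 13.9 CPM (-4.31 ± 0.82, adjusted p = 0.0015), and the luteinising hormone subunit gene lhb was at 0.469 to 1.01 CPM against 0.522, 83.6, 0.586, 1.602 and 20.04 CPM (-4.84 ± 0.99, adjusted p = 0.0028). Pools 2 and 5 alone were high in each. Without them the log2 fold changes were -0.50 for cga, -0.64 for prl and -0.27 for lhb, and none passed (adjusted p = 0.057, 0.28 and 0.74). The melanocortin precursor gene pomca, which did not pass with all libraries (-3.13 ± 1.08, adjusted p = 0.056), was at 0.118 to 4.08 CPM against 0.196, 75.1, 0.621, 0.687 and 15.4 CPM, and its direction turned to 2.09 without pools 2 and 5 (adjusted p = 0.12). A further set was high in pools 1 and 5 only. Among these, capsla was at 0.65 to 1.49 CPM at 24 months against 16.5, 1.06, 1.07, 1.08 and 19.4 CPM at 6 months (-3.01 ± 0.69, adjusted p = 0.0062), and DNAH9, for a motor protein of motile cilia, was at 2.85 to 3.96 CPM against 16.1, 2.05, 3.31, 3.20 and 24.5 CPM (-1.58 ± 0.44, adjusted p = 0.021). The call for DNAH9 ended without replicate 2 of 24 months or pool 1 or 5 of 6 months (adjusted p = 0.055 to 0.14), and without pools 1, 2 and 5 neither gene differed by more than 0.17 on the log2 scale (adjusted p = 0.87 and 0.99). How far the make-up of these pools entered the other differences was not tested beyond the counts without them.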

How the data were processed

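RNA of 25 brain libraries was used, 5 at each of 5 ages, and the skin libraries for 1 comparison. Per the methods of the study, TruSeq RNA libraries were sequenced on HiSeq instruments. Whether strand was used in counting is not given in the sources used here, so a gene and an antisense neighbour may share reads. The submitters' processing notes name CASAVA 1.8.0, TopHat 2.0.6, HTSeq and build Zv9. The deposited counts are whole reads per gene, not normalised by the authors. The RPKM values deposited beside them were computed by the authors from these counts and served only in a filter. Low counts were removed with filterByExpr, libraries were scaled by TMM, and a robust quasi-likelihood model with 2-sided tests was fitted (edgeR 4.0.16, R 4.3.3) over all 25 brain libraries with age as a factor, and over 50 libraries for brain against skin. The SE of an edgeR log2 fold change was computed as its size divided by the square root of the F statistic of its test. It is thus derived from the test and is not a separate estimate of the spread. The 10 libraries held 29006611 to 39394478 counted reads. Genes given with values are those with the largest non-overlapping changes, the smallest p, up to 4 changed members of each list by p, clock genes and tissue markers. The genes and lists were chosen with earlier results of these data known, so their counts are descriptions. Symbols are those of the table, with current symbols from the NCBI name table. Replicates are separate fish or pools by label. Scripts were tested on simulated counts. Alternatives were RLE scaling, other filters, DESeq2 1.42.0, limma 3.58.1 (voom), fewer ages and leaving out libraries. By the fish numbers in the sample titles 15 fish gave both brain and skin, 4 of them at 24 months and 2, each within a pool, at 6 months. The deviations of a fish from its group means correlated between tissues at -0.088 to 0.266, above 0.1 in 10 of 15, and the fish was added as a block to the test of brain against skin after the data were seen.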

Additional observations from a re-analysis of the deposited data

Results flagged for a closer look

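In 16 of 210 groups of 5 libraries checked, over the genes given with values, the highest or lowest library stood apart from the rest of its age by more than Dixon's critical value of 0.71 for 5 samples. Chance gives about 1 in 20 such groups. At 24 months the single high values were 9.30 CPM for nfil3-2 in replicate 5, 164 CPM for foxo3b in replicate 4, and 1.35 CPM for gngt1, 2.87 CPM for pde6c and 6.19 CPM for gnat1 in replicate 3. The single low value at 24 months was 156.5 CPM for cry1a in replicate 2. At 6 months pool 2 was high in cga (164 CPM), lhb (83.6 CPM) and pomca (75.1 CPM), pool 3 was high in btg2 (38.8 CPM) and sox4a (160.1 CPM) and pool 4 was high in rorab (146.5 CPM). The low values at 6 months were 128 CPM for cry2b in pool 3, 9.68 CPM for BX324231.1 in pool 4, 7.25 CPM for rrm2 in pool 1 and 9.62 CPM for cln3 in pool 5.

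In 39 of the 105 genes given with values the difference of 24 against 6 months departed between brain and skin by the test of the difference itself (edgeR, adjusted p under 0.05). Over all genes tested there the share was 10.9% (2697 of 24756). Many of the 105 were picked by their change in these same brain libraries, so the share among them is not a like measure. The values below are the log2 fold change of 24 against 6 months in brain minus that in skin. Among clock genes the difference was 1.65 for per1a, 1.72 for C19H1orf51 (1 of 2), 1.15 for cry5, 1.103 for tefb, 0.86 for tefa and 0.71 for nr1d2b, and it was 0.83 for cry2a, a cryptochrome outside the clock lists. For further clock genes it was -2.86 for hlfb, -2.71 for nfil3-5, -2.18 for rorcb, -1.61 for arntl2 and -1.18 for nfil3. Among immune genes it was 4.13 for lgals3bpa, 1.92 for LGALS3BP (2 of 3), 1.85 for socs1, 1.69 for NLRC5, 1.64 for irf8, 0.83 for stat1a and 0.78 for BX324231.1. For photoreceptor, pineal and pituitary genes, where the 6-month pools differed, it was -6.02 for gngt1, -4.70 for asmt, -4.65 for lhb, -3.78 for cga and -3.74 for pde6c. Other positive differences were 3.595 for lims2, 3.25 for zgc:175128, 1.802 for COL14A1 (2 of 2), 1.398 for fli1b, 1.03 for sox10, 1.00 for hsf2 and 0.55 for ercc4. Other negative differences were -3.19 for stxbp1b, -2.35 for csrnp1a, -2.26 for MKI67, -2.01 for mfsd2ab, -1.83 for rrm2, -1.45 for tet1, -1.06 for fabp7a and -0.98 for impdh1b. Skin libraries were of 1 fish at both ages, whereas brain libraries of 6 months were pools of 2 fish. With the fish that gave both tissues as a block, 16 of the 39 passed the test, and all 39 had the same direction. In limma voom over all 50 libraries with the fish as a random block, 30 of the 39 passed, again all in the same direction. The 39 had been picked by the test without the block, which shares these libraries. At 6 months the fit limited to fish that gave both tissues rests on brain pools 3 and 4, the pools low in pituitary, pineal and photoreceptor genes. There the difference was -0.34 for lhb, -0.38 for cga, -1.38 for asmt, -1.11 for pde6c and -3.14 for gngt1, and none passed (adjusted p = 0.17 to 0.86).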

How the results depend on the processing

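The count of genes changed between 24 and 6 months was 3198, and 2952 to 4087 under RLE scaling, other filters, DESeq2 (4087), voom with quality weights, only the 10 libraries, and without mitochondrially encoded genes. In the joint edgeR fit of brain and skin the same brain comparison called 1435 genes (5.8% of 24756). Genes that did not pass there include klf9 (adjusted p = 0.078), fkbp5 (0.125), olig2 (0.12), fabp7a (0.24), s100b (0.19), abcb4 (0.245), lama4 (0.12), rrm2 (0.075) and acad8 (0.057). Leaving out 1 library gave 2099 to 3482. Without pools 2 and 5 it was 1560, and without pools 1, 2 and 5 it was 866. The settings without these pools and the one without mitochondrially encoded genes were chosen after seeing the data. Changed members of the lists numbered 361, and 183 and 124 in the same order, and 249 to 372 without 1 library. Changed genes between 24 and 12 months numbered 1970, 1297 with voom and 1251 to 2001 without 1 library. The count for brain against skin (2697) ranged over 2134 to 2728 without 1 library. The directions of pomca (2.09 without pools 2 and 5, 1.67 without pools 1, 2 and 5), crx (0.092 without pools 1, 2 and 5) and gnat1 (0.0503 without pools 1, 2 and 5) turned. Of 99 changed genes given with values, 56 remained changed in all settings, 18 were lost without pools 2 and 5, 41 without pools 1, 2 and 5, and 13 with voom. Fewer samples are part of such losses. The fit with the fish as a replicate block rests on 4 fish at 24 months and 2 at 6 months, from brain pools 3 and 4. With it brain against skin gave 1125 genes, 681 of them also among the 2697. Voom over all 50 libraries gave 2661 with the fish as a random block and 2055 with no block. These were added after seeing the data. Brains of different ages came from different fish and were not paired.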
